A study of Mus musculus with 12 samples.

Results

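The nuclear genes for subunits of oxidative phosphorylation were followed in RNA from the hypothalamus of adult mice. They were chosen by name and by a minimum level: protein-coding genes with a symbol that begins with Ndufa, Ndufb, Ndufc, Ndufs or Ndufv (Ndufaf excepted), Uqcr, Cox4i, Cox5, Cox6, Cox7, Cox8 or Atp5, or that is Sdha, Sdhb, Sdhc, Sdhd or Cyc1, and with a mean level of at least 1 CPM over the 12 libraries. CPM are counts divided by library sizes that were scaled with TMM, and symbols are those of GENCODE M21. Such names were borne by 86 of the 52638 entries that were counted, and 82 of these reached the level. Just outside lay Cox4i2 at 0.791 CPM, Cox7b2 at 0.695, Cox8b at 0.179 and Cox8c at 0.0152. Just inside lay Atp5g2 at 1.31 CPM, Ndufa4l2 at 1.80, Cox6b2 at 1.88 and Atp5l at 2.49. The 82 genes comprise 36 of complex I (7 core and 29 accessory subunits), 4 of complex II, 9 of complex III, 16 of complex IV and 17 of complex V. The name rule also takes in Cox7a2l, known as a factor for linking complexes III and IV, and Atp5s, known as factor B of the ATP synthase. These 2 are not structural subunits of a single complex in the strict sense.

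Ribosomes of cells with the long leptin receptor (LepRb) were pulled down from homogenised hypothalamus through a ribosomal protein L10a fused to green fluorescent protein. RNA on the beads (bead-bound) and RNA left behind (supernatant) were sequenced for 3 Stat3KO and 3 Ctrl pools of 5 to 8 mice, which gave 4 groups of 3 libraries from 6 pools. Stat3KO mice were LepRb-Cre/Cre with Stat3-flox/flox and R26-GFP:L10a/GFP:L10a, and Ctrl mice had both the Cre and the R26-GFP:L10a alleles but no floxed Stat3. All groups thus share homozygous LepRb-Cre and homozygous GFP:L10a, and Cre acts only in cells that express or once expressed LepRb, whatever their type. Replicates are pools of different mice. Bulk RNA does not tell fewer cells of a type from less RNA per cell.

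Oxidative phosphorylation takes place in the inner mitochondrial membrane. Complexes I and II pass electrons from NADH and succinate to a quinone, complex III hands them on to cytochrome c, complex IV reduces oxygen, and complex V makes ATP from the proton gradient that complexes I, III and IV build. Most subunits are encoded in the nucleus, translated on cytosolic ribosomes and imported, while the mitochondrial genome encodes a small hydrophobic core that mitochondrial ribosomes translate. Neurons depend heavily on this pathway, and several complex IV subunits exist as a widely expressed form and a form that is restricted to muscle, testis or other tissues.

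Libraries held 20743217 to 41829907 counts. Stat3, the targeted gene, stood at 116, 149 and 163 CPM on the beads in Stat3KO replicates 1, 2 and 3, with 144, 179 and 181 CPM on the beads in Ctrl. These ranges overlapped (log2 fold change -0.24, SE 0.16, adjusted p = 0.9994 by edgeR's quasi-likelihood test), and counts over a whole gene do not show the loss of single exons, so Stat3KO is used here as the label. Lepr, which defines the tagged cells, was higher on the beads by 2.34 on the log2 scale (SE 0.189, adjusted p = 4.68e-07), with 5.86 to 13.8 CPM on the beads and 1.86 to 2.47 in the supernatant. Replicate 1 stood apart from replicates 2 and 3 in every group: the chi-square statistic per gene was 25.1 to 75.5 for pairs with replicate 1 and 5.91 to 16.0 for the pairs of replicates 2 and 3. Among the bead-bound libraries, Lepr was lowest in replicate 1 of Ctrl (5.86 CPM) and next lowest in replicate 1 of Stat3KO (9.93 CPM). The medians of the genotype comparisons are therefore also given without the libraries numbered 1.

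The oxidative phosphorylation genes made up 1.30% to 1.95% of all counts. Their summed level in replicates 1, 2 and 3 was 21340, 16450 and 17910 CPM on the Stat3KO beads, with 18380, 17920 and 16550 CPM on the Ctrl beads. In the supernatant it was 14270, 13170 and 13660 CPM for Stat3KO and 12930, 12440 and 12400 CPM for Ctrl. Every bead-bound library lay above every supernatant library. Replicate 1 of Stat3KO bead-bound RNA was the highest library of the 12 for 59 of the 82 genes, and replicate 1 of Ctrl bead-bound RNA for another 14.

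**Figure D1:**
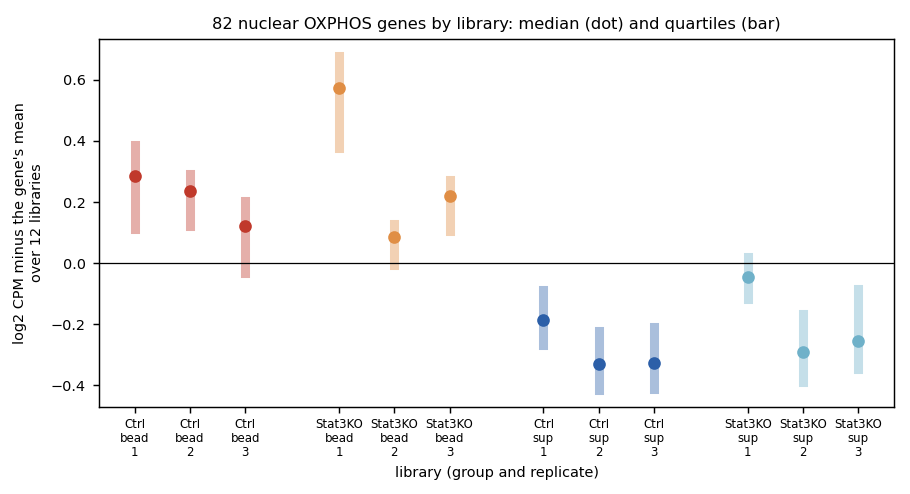
Levels of the 82 nuclear oxidative phosphorylation (OXPHOS) genes by library, as log2 CPM minus each gene's mean over the 12 libraries; dots are medians and bars run from the lower to the upper quartile. All 6 bead-bound medians lie above 0 and all 6 supernatant medians below it, with Stat3KO bead replicate 1 highest at 0.57.

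Levels differed widely between genes of 1 complex. They are given as CPM per kilobase of mRNA (mean over the 12 libraries), with the length of 1 main transcript per gene. On this scale complex V held both the highest level, 826 for Atp5b (the catalytic beta subunit), and the lowest, 1.79 for Atp5g2 (1 of 3 genes for the same c ring protein). In complex IV the level ran from 1.93 for Ndufa4l2 to 674 for Ndufa4. Complex III ran from 81.4 for Uqcrq to 492 for Uqcrh, complex II from 50.5 for Sdhc, a membrane anchor, to 214 for Sdha, the flavoprotein that oxidises succinate, and complex I from 6.29 for Ndufab1 to 297 for Ndufb9. These levels depend on the transcript taken: that of Ndufab1 has 3479 bases, with a coding length of 468. In CPM, Ndufab1 (21.88) was not the lowest gene of complex I. Some low levels belong to genes with near-identical copies. In 10 of the 82 genes at least 50% of the 50-base windows of the main transcript also matched, with up to 2 mismatches, an annotated transcript of another gene. These 10 had a median of 119 CPM per kilobase, against 169 for the other 72. Among them were Atp5g2 (88.3% of windows shared), Atp5l (85.7%), Atp5o (80.6%), Ndufs3 (78.8%), Cox7c (54.8%), Cox5a (53.5%) and Atp5c1 (52.2%). The counts of all 10 are uncertain, since how reads with several matches were counted is not given in the sources used here.

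Bead-bound RNA was compared with supernatant RNA over all 12 libraries, to ask which of these genes were more abundant on the tagged ribosomes than in the remaining tissue RNA. Nuclear oxidative phosphorylation genes were mostly higher on the beads, by a modest and rather uniform amount. By edgeR's quasi-likelihood test with Benjamini-Hochberg adjustment over 19122 genes, 67 of the 82 were higher and 1 was lower at an adjusted p under 0.05, while 26.2% of all genes tested were called higher and 28.7% lower. The median log2 fold change of the 82 was 0.47 (1.39-fold), with quartiles of 0.31 and 0.57. Over all genes the median was -0.03 and the quartiles were -0.56 and 0.36, and 19.0% of all genes lay above the median of the 82. In 47 of the 82 genes every bead-bound library exceeded every supernatant library (16.6% of all genes did so), and in 1 gene every bead-bound library was lower (14.8% of all genes).

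The direction was also seen pool by pool. The median log2 ratio of bead-bound to supernatant CPM was 0.61, 0.37 and 0.41 in Stat3KO pools 1, 2 and 3 and 0.50, 0.58 and 0.42 in Ctrl pools 1, 2 and 3. Between 73 and 77 of the 82 genes were higher on the beads in each pool, and 70 were higher in all 6. Over all genes with a mean of at least 1 CPM, the pools' medians were 0.03 to 0.09, here with 0.5 added to the CPM. In the Stat3KO libraries alone 35 genes were called higher, and in the Ctrl libraries alone 58, with medians of 0.43 and 0.48. Without replicate 1 of every group the counts were 66 higher and 4 lower. With library totals in place of TMM scaling, 52 genes were called higher and 4 lower. That scaling moved the median of all genes from -0.03 to -0.16 and that of the 82 from 0.47 to 0.34, and the genes that lost their call included Ndufs7, Sdha, Sdhc, Uqcrc1, Uqcrc2 and Cox5b.

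**Figure D2:**
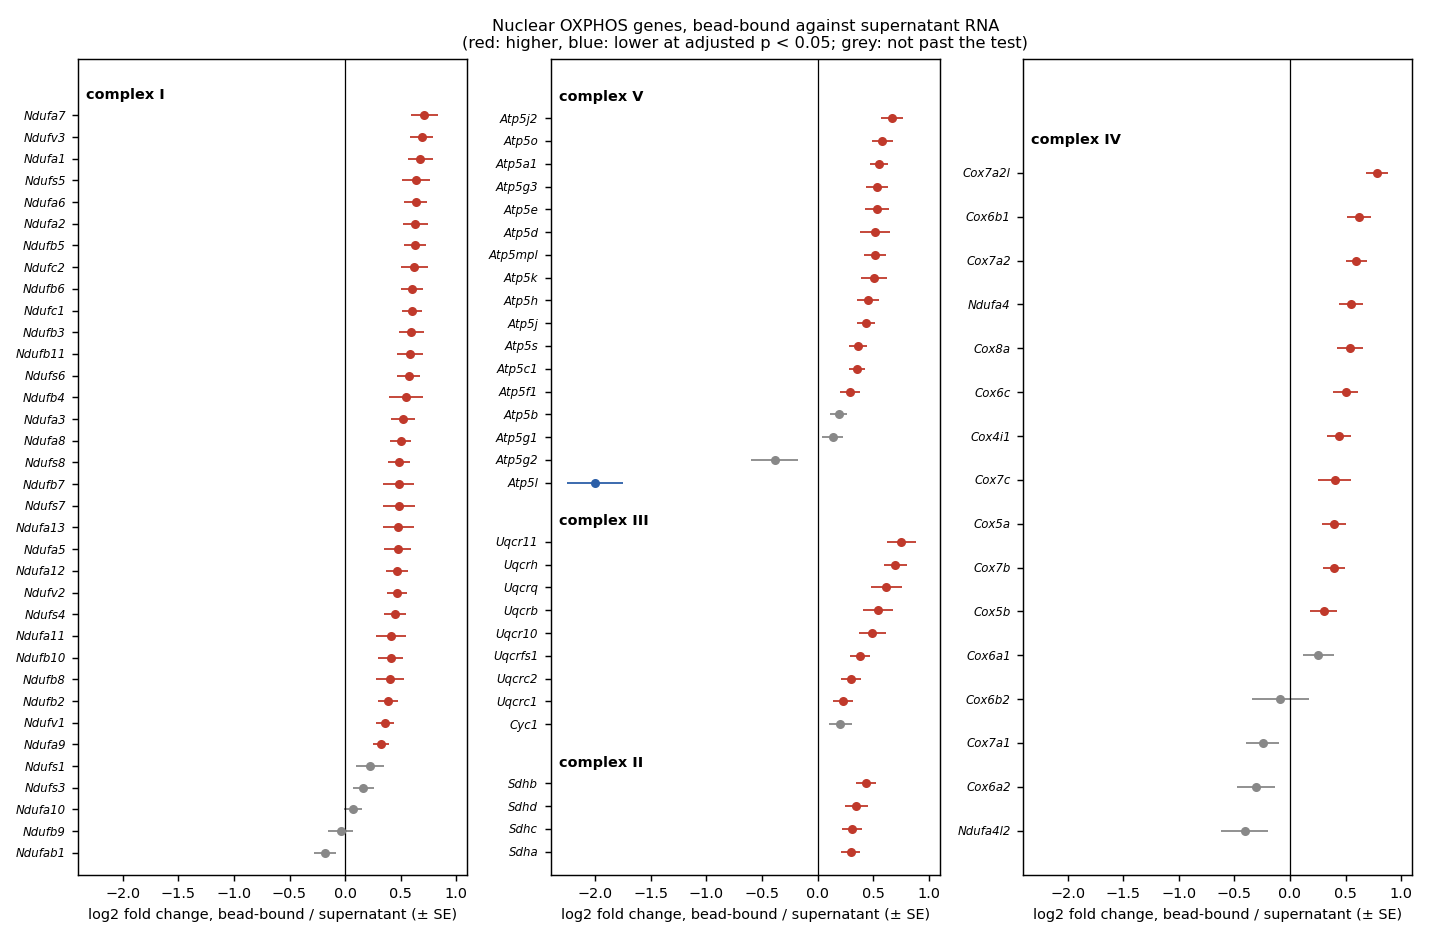
Log2 fold change of each gene but 1, which is not shown, between bead-bound and supernatant RNA over 12 libraries, with its SE, by complex and ordered by size. Most genes lie between 0.3 and 0.7, and Atp5l of complex V lies far below the others at -2.00.

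In complex I, 31 of 36 genes were higher on the beads, none was lower and 5 were not called (median log2 fold change 0.48). The core subunits, which as a set (though not each of them) carry the flavin and the iron-sulfur clusters, included 5 called higher of 7, with a median of 0.36. Ndufv1, which binds NADH and the flavin, stood at 199, 239 and 261 CPM (lowest, median and highest library) on the beads and at 161, 178 and 207 CPM in the supernatant. Its ranges overlapped by the lowest bead-bound and the highest supernatant libraries, while all 6 pools were higher on the beads (log2 fold change 0.36, SE 0.0836, adjusted p = 0.00228). Ndufv2, the iron-sulfur subunit next to the flavin site, was higher by 0.47 (SE 0.0911, adjusted p = 0.000619). Ndufs7 and Ndufs8, which lie on the path to the quinone, were each higher by 0.48 (adjusted p = 0.0114 and 0.000974). The fractions of Ndufs7 overlapped, and its call was lost in the Ctrl (adjusted p = 0.0624) and the Stat3KO libraries alone (adjusted p = 0.106). Those of Ndufs8 did not overlap, and its call was lost in the Stat3KO libraries alone (adjusted p = 0.0505).

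The remaining core subunits did not pass the test. Ndufs1, the largest subunit of complex I, had bead-bound levels of 142, 195 and 219 CPM (lowest, median, highest) and supernatant levels of 114, 167 and 179 CPM. Both fractions were lowest in the replicates numbered 1, and all 6 pools were higher on the beads. Its log2 fold change was 0.22 (SE 0.125, adjusted p = 0.147), and it was called higher with the pool as a block (adjusted p = 0.00108) or without replicate 1 of Ctrl on the beads (0.30, adjusted p = 0.0467). With library totals the value of Ndufs1 fell to 0.093 (adjusted p = 0.532). Ndufs3 had a log2 fold change of 0.16 (SE 0.0927, adjusted p = 0.148), and 4 of its 6 pools were higher on the beads. Without replicate 2 of Stat3KO on the beads it was called, at 0.24 (adjusted p = 0.0459), while its value was 0.036 with replicates 2 and 3 alone (adjusted p = 0.679) and 0.033 with library totals (adjusted p = 0.779).

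The accessory subunits of complex I, which surround the core and are needed for its assembly and stability, included 26 of 29 called higher (median 0.52). The most increased was Ndufa7, with 94.4, 106 and 145 CPM on the beads (lowest, median, highest) and 58.6, 66.2 and 75.7 CPM in the supernatant. Its fractions did not overlap (log2 fold change 0.71, SE 0.121, adjusted p = 0.000221). Ndufv3, Ndufa1 and Ndufs5 followed with log2 fold changes of 0.69, 0.68 and 0.64, each with every bead-bound library above every supernatant library.

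Of the 3 accessory subunits that were not called, Ndufab1, the mitochondrial acyl carrier protein, had 18.6, 19.95 and 24.97 CPM on the beads (lowest, median, highest) and 20.4, 23.4 and 24.7 CPM in the supernatant. It was higher on the beads in 1 of 6 pools (log2 fold change -0.18, SE 0.100, adjusted p = 0.137), and it was called lower with the pool as a block (adjusted p = 0.0273) or without replicate 1 of Ctrl on the beads (-0.26, adjusted p = 0.0242). Ndufb9 and Ndufa10 had log2 fold changes of -0.04 (95% interval -0.28 to 0.20) and 0.07 (-0.10 to 0.24), so that neither interval reached the median of the complex. With library totals the value of Ndufb9 was -0.17 (adjusted p = 0.202).

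All 4 genes of complex II, which also belongs to the tricarboxylic acid cycle, were higher on the beads, with log2 fold changes from 0.30 for Sdha to 0.43 for Sdhb. Sdha stood at 604, 696 and 767 CPM on the beads (lowest, median, highest) and at 471, 552 and 603 CPM in the supernatant. The lowest bead-bound and the highest supernatant library were nearly level, and the fractions did not overlap (adjusted p = 0.00848). Sdhb, the iron-sulfur subunit, had 208 to 289 CPM on the beads and 162 to 192 CPM in the supernatant (adjusted p = 0.000904). With library totals the calls of Sdha (0.17, adjusted p = 0.0863) and Sdhc (0.18, adjusted p = 0.114) were lost, as they were in the Stat3KO libraries alone (0.24 and 0.31, adjusted p = 0.168 and 0.125).

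In complex III, 8 of 9 genes were higher on the beads (median 0.49), and the smallest changes belonged to the catalytic and the large core subunits. Cyc1, cytochrome c1, had 177, 193 and 259 CPM on the beads (lowest, median, highest) and 155, 176 and 189 CPM in the supernatant. The fractions overlapped, although all 6 pools were higher on the beads (log2 fold change 0.21, SE 0.100, adjusted p = 0.0958), and it was called higher with the pool block (adjusted p = 0.0101) or without replicate 3 of Ctrl on the beads (0.26, adjusted p = 0.0398). With library totals the value of Cyc1 was 0.075 (adjusted p = 0.565). Uqcrfs1, the Rieske iron-sulfur protein, was higher by 0.38 (SE 0.0904, adjusted p = 0.00254). Of the core proteins, Uqcrc2 was higher by 0.30 (adjusted p = 0.0112) and Uqcrc1 by 0.23 (adjusted p = 0.0391), and with library totals both calls were lost, at 0.17 and 0.10 (adjusted p = 0.102 and 0.359). The call of Uqcrc1 was lost in 8 of the 12 fits that left out 1 library: on the beads Stat3KO 3, Ctrl 1 or Ctrl 2, and in the supernatant Stat3KO 1 or 2 or any of Ctrl. The log2 fold change in these fits was lowest without replicate 1 of Ctrl on the beads, 0.16 (adjusted p = 0.0869), and highest without replicate 2 of Ctrl on the beads, 0.25 (adjusted p = 0.0547). The small subunits Uqcr11 and Uqcrh showed the largest changes of the complex, 0.76 (SE 0.134, adjusted p = 0.000304) and 0.70 (SE 0.106, adjusted p = 8.5e-05). Uqcrh, the acidic hinge protein that helps cytochrome c1 to meet cytochrome c, had 300.3, 311 and 454 CPM on the beads (lowest, median, highest) and 179, 192 and 244 CPM in the supernatant, without overlap.

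In complex IV, 10 of 11 widely expressed subunits were higher on the beads (median 0.44), while none of the 4 tissue-restricted forms was called in either direction and all 4 had a log2 fold change below 0 (median -0.27), although that of Cox6b2 turned above 0 in fits without 1 library. The promoters of these genes are shown first, because the complex holds pairs of genes for 1 subunit position, and Uqcrh of complex III is added as a gene with a large change. Windows run from 250 bases before to 50 after the RefSeq start on GRCm38, printed 5′ to 3′ along the gene: Cox6a1 (chr5:115348909-115349208, minus strand), Cox6b1 (chr7:30626065-30626364, minus), Cox6b2 (chr7:4753045-4753344, minus), Cox7a2 (chr9:79759804-79760103, minus), Cox7a1 (chr7:30183921-30184220, plus), Cox7a2l (chr17:83514284-83514583, minus) and Uqcrh (chr4:116075021-116075320, minus). Capitals mark matches, on either strand, to the letters searched for NRF1 (its GC-rich palindromic site, with 1 free base), ETS factors with GABP (CCGGAAG), YY1 (AAGATGGCG) and ERR (TCAAGGTCA).
Cox6a1: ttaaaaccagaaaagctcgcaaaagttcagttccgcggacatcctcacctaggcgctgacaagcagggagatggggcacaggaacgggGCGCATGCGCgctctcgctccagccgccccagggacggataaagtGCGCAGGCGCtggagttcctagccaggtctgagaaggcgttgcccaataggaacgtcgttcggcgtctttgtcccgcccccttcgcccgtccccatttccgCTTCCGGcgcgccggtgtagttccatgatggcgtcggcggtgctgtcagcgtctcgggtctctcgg
Cox6b1: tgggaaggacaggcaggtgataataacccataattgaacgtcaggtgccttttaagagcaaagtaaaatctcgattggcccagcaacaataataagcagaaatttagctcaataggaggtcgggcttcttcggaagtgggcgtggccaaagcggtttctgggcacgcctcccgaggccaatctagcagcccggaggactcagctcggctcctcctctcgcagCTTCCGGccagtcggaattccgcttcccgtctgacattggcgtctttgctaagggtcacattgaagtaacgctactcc
Cox6b2: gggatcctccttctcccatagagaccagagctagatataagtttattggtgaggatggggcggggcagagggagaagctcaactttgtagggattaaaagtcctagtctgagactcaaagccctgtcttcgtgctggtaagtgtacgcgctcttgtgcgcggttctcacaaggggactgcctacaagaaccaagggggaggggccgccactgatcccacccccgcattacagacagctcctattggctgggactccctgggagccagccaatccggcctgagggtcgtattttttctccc
Cox7a2: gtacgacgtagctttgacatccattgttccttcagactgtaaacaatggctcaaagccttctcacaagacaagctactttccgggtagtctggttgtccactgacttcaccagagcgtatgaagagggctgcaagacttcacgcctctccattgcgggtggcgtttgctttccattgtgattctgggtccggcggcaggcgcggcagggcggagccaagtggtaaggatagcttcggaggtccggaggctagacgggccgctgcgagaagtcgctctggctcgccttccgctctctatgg
Cox7a1: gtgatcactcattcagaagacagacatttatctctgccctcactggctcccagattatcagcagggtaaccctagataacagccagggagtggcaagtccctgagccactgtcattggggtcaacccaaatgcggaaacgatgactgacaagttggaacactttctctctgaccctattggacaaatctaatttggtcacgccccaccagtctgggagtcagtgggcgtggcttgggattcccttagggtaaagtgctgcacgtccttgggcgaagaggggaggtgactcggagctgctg
Cox7a2l: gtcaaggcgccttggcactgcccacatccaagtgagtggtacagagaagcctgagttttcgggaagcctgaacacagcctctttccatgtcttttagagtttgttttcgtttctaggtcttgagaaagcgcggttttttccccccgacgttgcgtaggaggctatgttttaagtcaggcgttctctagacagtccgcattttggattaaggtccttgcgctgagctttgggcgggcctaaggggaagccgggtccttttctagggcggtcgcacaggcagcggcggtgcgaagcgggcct
Uqcrh: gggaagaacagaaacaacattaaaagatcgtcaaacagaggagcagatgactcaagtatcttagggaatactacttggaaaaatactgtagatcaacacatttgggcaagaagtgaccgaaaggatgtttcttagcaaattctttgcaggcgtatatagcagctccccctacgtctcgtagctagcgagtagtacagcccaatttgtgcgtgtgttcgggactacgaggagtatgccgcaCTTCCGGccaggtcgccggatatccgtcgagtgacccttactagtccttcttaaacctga
Of the 4 sets of letters, the Cox6a1 window held NRF1 and ETS matches, the Cox6b1 and Uqcrh windows an ETS match, and the windows of Cox6b2, Cox7a2, Cox7a1 and Cox7a2l none.

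RefSeq windows were found for 65 of the 82 genes (70 windows, against 32851 windows of all genes). The NRF1 letters were present in 25.7% of the 70 windows and in 4.6% of all windows, the ETS letters in 22.9% and 8.9%, the YY1 letters in 7 of the 70 and in 1.4% of all windows, and the ERR letters in 2.9% and 0.4%. The share was 5.7% against 1.8% for a CREB site (TGACGTCA), 38.6% against 35.7% for Sp1 (GGGCGG) and 41.4% against 37.4% for CCAAT. NRF1, GABP, YY1 and the ERR factors are known regulators of respiratory chain genes, and a match describes letters, not binding. Of the 65 genes with a window, 55 were called higher on the beads. Those called higher were 15 of the 17 genes with the NRF1 letters, 13 of 16 with the ETS letters, 7 of 7 with the YY1 letters (Atp5j, Atp5j2, Ndufa9, Ndufc1, Ndufs4, Ndufs6 and Ndufs7) and 2 of 2 with the ERR letters. For CREB, Sp1 and CCAAT they were 3 of 4, 19 of 26 and 22 of 28.

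Cox7a2l, known as a factor for joining complexes III and IV into a supercomplex (GRCm38 chromosome 17, 83501918 to 83517330), showed the largest increase of all 82 genes. It stood at 180, 139.9 and 132 CPM on the beads in Stat3KO replicates 1, 2 and 3, with 128, 129.5 and 129 CPM on the beads in Ctrl. In the supernatant it stood at 98.6, 74.1 and 74.9 CPM for Stat3KO and at 81.9, 70.9 and 73.6 CPM for Ctrl. The lowest bead-bound library (128 CPM) lay above the highest supernatant library (98.6 CPM) (log2 fold change 0.78, SE 0.0992, 95% interval 0.57 to 1.00, adjusted p = 1.94e-05).

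The pairs of complex IV isoforms differed in level. Cox6b1, which bridges the monomers of the enzyme, had 319, 365 and 501 CPM on the beads (lowest, median, highest) and 215, 235 and 278 CPM in the supernatant (log2 fold change 0.62, SE 0.104, adjusted p = 0.000197). Its testis form Cox6b2 had 1.02, 1.76 and 3.45 CPM on the beads and 1.66, 1.91 and 2.21 CPM in the supernatant (log2 fold change -0.09, 95% interval -0.64 to 0.46). The fractions of Cox6b2 overlapped, and its highest value came from replicate 1 of Stat3KO bead-bound RNA. Without that library it was called lower (log2 fold change -0.45, adjusted p = 0.039), while without replicate 2 or 3 of the same group its value was 0.053 or 0.066 and not called. Per kilobase the mean level was 499 CPM for Cox6b1 and 3.21 CPM for Cox6b2.

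Cox7a2 had 224, 256 and 319 CPM on the beads (lowest, median, highest) and 155, 161 and 192 CPM in the supernatant, without overlap (log2 fold change 0.60, SE 0.0935, adjusted p = 0.000113). Cox7a1, its heart and muscle form, had 1.90, 2.63 and 3.54 CPM on the beads and 2.44, 3.02 and 3.34 CPM in the supernatant, and 1 of 6 pools was higher on the beads (log2 fold change -0.25, SE 0.151, adjusted p = 0.18). Ndufa4, now counted as a subunit of complex IV, was higher by 0.55 (SE 0.109, adjusted p = 0.000711). Its paralog Ndufa4l2, known for its induction in low oxygen, had a log2 fold change of -0.41 (SE 0.211, adjusted p = 0.113), which was -0.59 without replicate 1 of Ctrl bead-bound RNA (adjusted p = 0.0202).

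The pair Cox6a1 and Cox6a2 was not called on either side. Cox6a1 had 209, 244 and 365 CPM on the beads (lowest, median, highest) and 180, 216 and 255 CPM in the supernatant. Its fractions overlapped, with the highest values of both in replicate 1 of Ctrl (log2 fold change 0.26, SE 0.141, adjusted p = 0.135), and the pool block called it higher (adjusted p = 0.00535). With library totals the value was 0.12 (adjusted p = 0.491), and it was 0.41 in the Ctrl libraries alone and 0.11 in the Stat3KO libraries alone. The muscle form Cox6a2 had 6.08, 7.79 and 12.4 CPM on the beads and 8.96, 11.01 and 11.7 CPM in the supernatant. Its bead-bound levels were 11.5 and 12.4 CPM in the replicates numbered 1 and 6.08 to 7.89 CPM in the other 4 libraries. The log2 fold change was -0.30 (SE 0.172, adjusted p = 0.148), the pool block called it lower (adjusted p = 0.0361), and replicates 2 and 3 alone gave -0.54 (adjusted p = 0.00153). Without replicate 1 of either genotype on the beads it was called lower at -0.44 (adjusted p = 0.0266 for Stat3KO and 0.0259 for Ctrl). Per kilobase Cox6a1 had 427 CPM and Cox6a2 14.2 CPM. Of the remaining subunits, Cox4i1, Cox5a and Cox8a were higher by 0.44, 0.40 and 0.54, with uncertain counts for Cox5a (53.5% of windows shared). Cox5b was higher by 0.31 (adjusted p = 0.0442), a call lost with library totals (0.17, adjusted p = 0.25) and in 6 of the 12 fits without 1 library: replicate 1 of either genotype on the beads, and replicate 2 or 3 of either genotype in the supernatant, at log2 fold changes of 0.22 to 0.30.

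**Figure D3:**
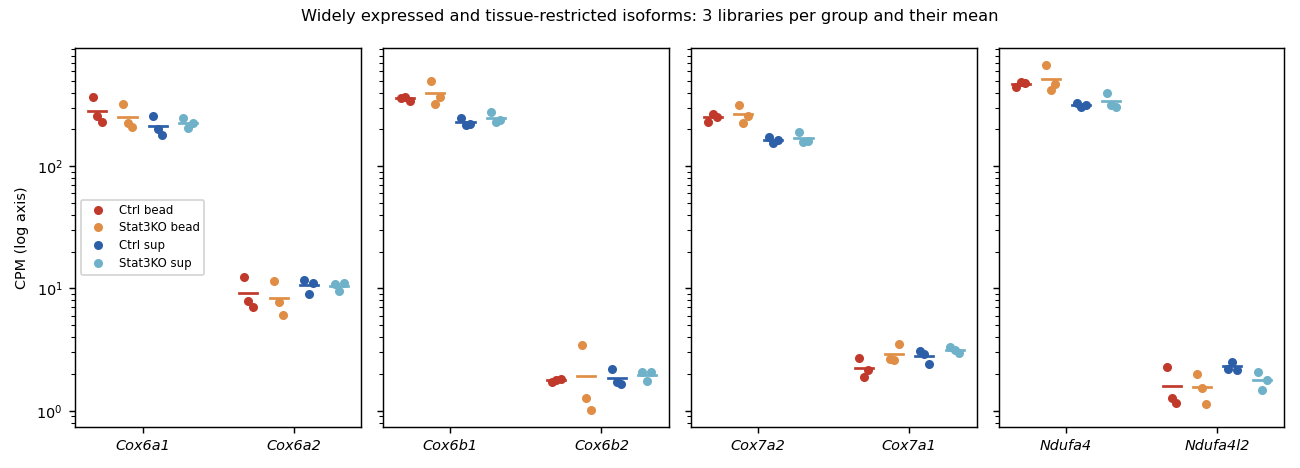
CPM on a log axis of 4 pairs of complex IV isoforms in the 12 libraries, with the 3 libraries of a group as dots and their mean as a line. Cox6b1, Cox7a2 and Ndufa4 lie higher in the bead-bound groups, while Cox6a2, Cox6b2, Cox7a1 and Ndufa4l2 lie below 13 CPM in every library.

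In complex V, 13 of 17 genes were higher on the beads and 1 was lower (median 0.46). Of the F1 head and stalk, Atp5a1, the alpha subunit, had 1501, 1704 and 1853 CPM on the beads (lowest, median, highest) and 912, 1113 and 1297 CPM in the supernatant, without overlap. It was higher by 0.55 (SE 0.0815, adjusted p = 6.89e-05). Atp5b, its partner in the catalytic hexamer, had 1557, 1725 and 1780 CPM on the beads and 1307, 1433 and 1666 CPM in the supernatant. All 6 pools were higher on the beads, but the ranges overlapped and the change was smaller (log2 fold change 0.19, SE 0.0789, adjusted p = 0.0543). With the pool as a block Atp5b was called higher (adjusted p = 0.0103), as it was at 0.22 to 0.23 without replicate 2 of Stat3KO or 3 of Ctrl on the beads or 3 of Stat3KO in the supernatant. Its value was 0.061 with library totals (adjusted p = 0.515) and 0.11 in the Stat3KO libraries alone (adjusted p = 0.532). Atp5c1, the gamma subunit that turns inside the head, was higher by 0.36, with uncertain counts (52.2% of windows shared). Atp5d and Atp5e were higher by 0.52 and 0.53.

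The c ring, the rotor in the membrane, is made of a protein that 3 genes encode with different import signals. Atp5g3 had 598, 658 and 904 CPM on the beads (lowest, median, highest) and 424, 458 and 542 CPM in the supernatant, without overlap (log2 fold change 0.54, SE 0.0986, adjusted p = 0.000396). Atp5g1 had a log2 fold change of 0.14 (SE 0.0949, adjusted p = 0.234), which was 0.0074 with library totals and -0.0024 with replicates 2 and 3 alone. The uncertain Atp5g2 had 0.949 to 1.34 CPM on the beads and 1.08 to 2.08 CPM in the supernatant (log2 fold change -0.39, SE 0.215, adjusted p = 0.14). Per kilobase the means were 809, 8.04 and 1.79 CPM for Atp5g3, Atp5g1 and Atp5g2. The mRNA lengths taken were 714, 4715 and 731 bases, and the means before division 577.7, 37.93 and 1.307 CPM.

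Of the peripheral stalk and membrane part, 7 of 8 genes were higher, led by Atp5j2 (log2 fold change 0.67, SE 0.0998, adjusted p = 7.39e-05). Atp5o, which joins the stalk to the head, was higher by 0.58. The exception was Atp5l, the g subunit that takes part in pairing the enzyme into dimers (GRCm38 chromosome 9, 44912557 to 44920742). It had 0.703, 1.37 and 0.644 CPM on the beads in Stat3KO replicates 1, 2 and 3, with 1.63, 0.982 and 0.786 CPM on the beads in Ctrl. In the supernatant it had 4.90, 3.77 and 2.66 CPM for Stat3KO and 5.37, 3.75 and 3.31 CPM for Ctrl. All bead-bound libraries lay below all supernatant libraries (log2 fold change -2.00, SE 0.254, adjusted p = 1.97e-05). Since 85.7% of its windows matched transcripts of 27 other genes, 21 of them pseudogenes, this value is uncertain. Atp5s, factor B, was higher by 0.36 (adjusted p = 0.00183).

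Across the 82 genes the fold change was related to transcript length, given here as a description across genes, which share libraries and are not independent replicates. Spearman's rho between the log2 fold change and mRNA length was -0.36 over the 82 and -0.31 over 15429 protein-coding genes, and with coding length it was -0.38 and -0.27. With GC content it was -0.03 and 0.14, and with level (log2 of the mean CPM) 0.03 and 0.25. The median level was 7.12 for the 82 genes and 4.51 for the protein-coding genes. The median mRNA of the 82 genes was 850 bases, against 2982 for the protein-coding genes. Among genes with a coding length of up to 600 bases, 51 of 61 oxidative phosphorylation genes (83.6%) and 946 of 1958 other genes (48.3%) were called higher, with medians of 0.50 and 0.30. The parts of transcript length and of level in the fold changes and calls were not tested beyond these values.

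The fractions also differed in the RNA of cell type markers. All 10 astrocyte and all 10 oligodendrocyte markers and 9 of 10 microglial markers were lower on the beads, with medians of -1.06, -1.34 and -1.55, and none was at 0 in any group. Summed oligodendrocyte markers were 1800 to 3160 CPM on the beads and 4678 to 7235 CPM in the supernatant. Summed astrocyte markers were 879 to 1433 and 1569 to 1853 CPM, and summed microglial markers 30.2 to 65.3 and 73.1 to 120 CPM. Of 10 neuronal markers 4 were higher and 2 lower (median 0.13), with sums of 8746 to 11000 CPM on the beads and 7988 to 9463 CPM in the supernatant. Of 10 endothelial markers 9 were higher and none lower (median 1.83), with sums of 20.4 to 166 CPM on the beads and 23.6 to 29.8 CPM in the supernatant. Of 10 mural cell markers 3 were higher and 1 lower (median 0.17). Of 10 markers of ependyma and tanycytes none was higher and 3 were lower (median -0.49). Over all genes 26.2% were called higher and 28.7% lower. The part of cell makeup in the fold changes of the oxidative phosphorylation genes was not tested. Replicate 1 of Stat3KO bead-bound RNA had the lowest endothelial sum of the bead-bound libraries (20.4 CPM) and the highest summed level of oxidative phosphorylation genes. The same library had the highest neuronal sum (11000 CPM). Its sums of cytosolic (11570 CPM) and mitochondrial (4689 CPM) ribosomal proteins were the highest as well.

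Subunits that the mitochondrial genome encodes went the other way. Of 13 such genes 7 had enough counts to be tested, and all 7 were lower on the beads, with log2 fold changes from -4.83 to -4.42 (median -4.66). Their sum was 162 to 1377 CPM on the beads and 6058 to 11800 CPM in the supernatant, with the highest bead-bound sum in replicate 1 of Ctrl. mt-Co1, a catalytic subunit of complex IV, had 93.3, 73.0 and 59.1 CPM on the beads in Stat3KO replicates 1, 2 and 3, with 328, 44.9 and 62.1 CPM on the beads in Ctrl. Its supernatant levels were 1462 to 2704 CPM. Of the 13 genes, mt-Co2, mt-Atp6, mt-Atp8 and mt-Nd4l stood at 0 CPM in all 12 libraries. At most, mt-Co3 and mt-Nd3 reached 0.0503 and 0.2253 CPM in a library. The part of read counting in these values was not tested. Libraries were made from polyadenylated RNA.

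Other nuclear genes of mitochondria are given against the 26.2% of all genes that were called higher and the 28.7% called lower. Of 77 tested genes for mitochondrial ribosomal proteins, 68 were higher and 1 was lower (median 0.48), and of 31 import genes 19 were higher and 1 was lower (0.36). Of 46 assembly factors of the respiratory complexes 26 were higher and 2 were lower (median 0.31). The higher ones included Sdhaf4 (0.82) and Bcs1l (0.61), which help to build complexes II and III, and the lower ones were Atpaf1 (-0.62) and Cox10 (-0.44). Enzymes of the tricarboxylic acid cycle and pyruvate dehydrogenase had 5 of 18 higher, a share near that of all genes, and 1 lower (median 0.14). Glycolysis, in the cytosol, had 10 of 16 higher and 1 lower (median 0.37). Cycs, cytochrome c, had a log2 fold change of 0.18 (SE 0.139, adjusted p = 0.273). Cytosolic ribosomal proteins were higher in 72 of 91 cases and lower in 5 (median 0.81).

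Factors known to drive transcription of mitochondrial genes had 2 of 13 higher and 6 lower on the beads (median -0.14). Ppargc1a, the coactivator PGC-1alpha, had 54.4, 55.2 and 58.8 CPM on the beads in Stat3KO replicates 1, 2 and 3, with 41.99, 47.8 and 53.9 CPM on the beads in Ctrl. Its supernatant levels were 75.2 to 108 CPM, above all bead-bound levels (log2 fold change -0.93, SE 0.103, adjusted p = 6.24e-06). Esrra and Gabpa were lower as well, by -0.52 (adjusted p = 0.0138) and -0.40 (adjusted p = 0.00225). Tfam, which packs and transcribes mitochondrial DNA, was higher by 0.31 (adjusted p = 0.00757). Nrf1 and Yy1 were not called, at 0.03 and -0.08.

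**Figure D4:**
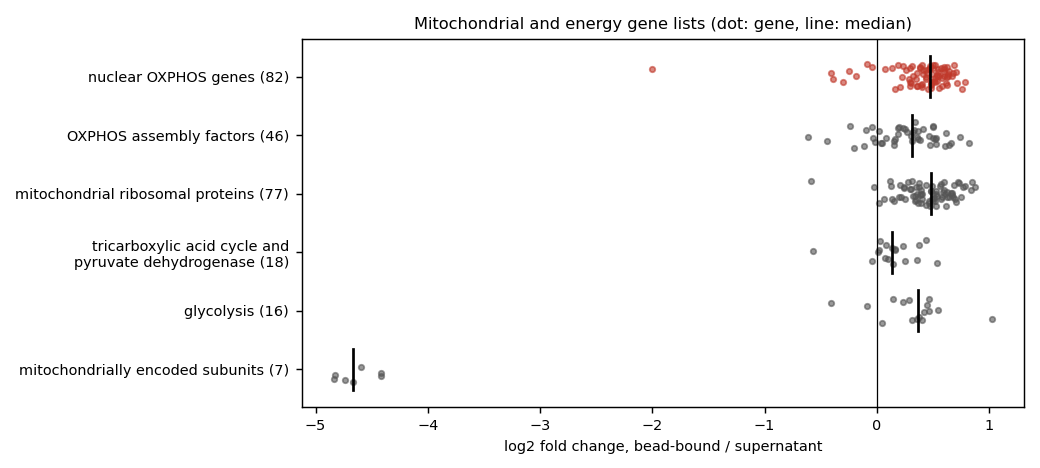
Log2 fold change between bead-bound and supernatant RNA for genes of 6 lists, with each gene as a dot, the number of genes tested in brackets and the median as a line. The nuclear OXPHOS genes (median 0.47) and the mitochondrial ribosomal proteins (0.48) lie right of 0, and the 7 mitochondrially encoded subunits lie near -4.66.

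Stat3KO was compared with Ctrl within bead-bound RNA, to ask whether the loss of Stat3 from LepRb cells goes with a change of these genes. None of the 82 was called by edgeR's quasi-likelihood test over 17354 genes, in either direction, while 0.421% of all genes were called higher and 0.0288% lower. None had an unadjusted p under 0.05, and DESeq2 called none. The smallest adjusted p was 0.9994. The median log2 fold change was 0.08, against -0.01 over all genes, and 62 of the 82 values were above 0. This sign rested on replicate 1 of Stat3KO: without it the median was -0.07 with 19 values above 0, and without replicate 1 of Ctrl it was 0.13 with 78 above 0.

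The intervals set limits on what could have been missed. The 95% interval of the fold change lay within 1.5-fold either way in 70 of the 82 genes and within 2-fold in 80. Stat3KO lay above Ctrl in all libraries for 1 gene, Cox7a2l, and below for none, against 4.96% and 4.09% of all genes. Of its bead-bound values, given above, the lowest of Stat3KO was 132 CPM and the highest of Ctrl 129.5 CPM, and the log2 fold change was 0.22 (SE 0.149, adjusted p = 0.9994). Without replicate 1 of Stat3KO it was 0.082. Uqcrh, whose promoter is printed above, had 454, 300.3 and 339 CPM in replicates 1, 2 and 3 of Stat3KO, against 308, 314 and 304 CPM in Ctrl. Its Stat3KO replicate 2 lay below all Ctrl libraries (log2 fold change 0.23, SE 0.161), and without Stat3KO replicate 1 the value was 0.05. Cox7a1 had 2.65, 2.61 and 3.54 CPM in Stat3KO, against 2.72, 1.90 and 2.14 CPM in Ctrl, again with overlap (0.37, SE 0.265), and its value was 0.45 without replicate 1 of Stat3KO and 0.53 without replicate 1 of Ctrl.

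The lowest unadjusted p-values among the genes with a negative value belonged to Cox6a1, Atp5d and Atp5l. Cox6a1 had 325, 224 and 209 CPM in replicates 1, 2 and 3 of Stat3KO, against 365, 259 and 229 CPM in Ctrl, with overlap (log2 fold change -0.18, SE 0.217). Without replicate 1 of Ctrl its value turned to 0.05, and without replicate 1 of Stat3KO it was -0.39. Atp5d, the delta subunit of the F1 stalk, had 310, 225 and 230 CPM in Stat3KO, against 373, 257 and 214 CPM in Ctrl (-0.15, SE 0.215). Its value was 0.12 without replicate 1 of Ctrl and -0.30 without replicate 1 of Stat3KO. In both genes replicate 1 was the highest library of each genotype. Of the mitochondrially encoded subunits none of the 7 was called in this comparison. Their summed level was 341, 221 and 184 CPM in replicates 1, 2 and 3 of Stat3KO, against 1377, 162 and 184 CPM in Ctrl, so that Stat3KO was lower only through replicate 1 of Ctrl. With replicates 2 and 3 alone, Ndufc2, an accessory subunit of complex I, was called lower (log2 fold change -0.41, adjusted p = 0.0119), and the median of the 82 was -0.06.

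**Figure D5:**
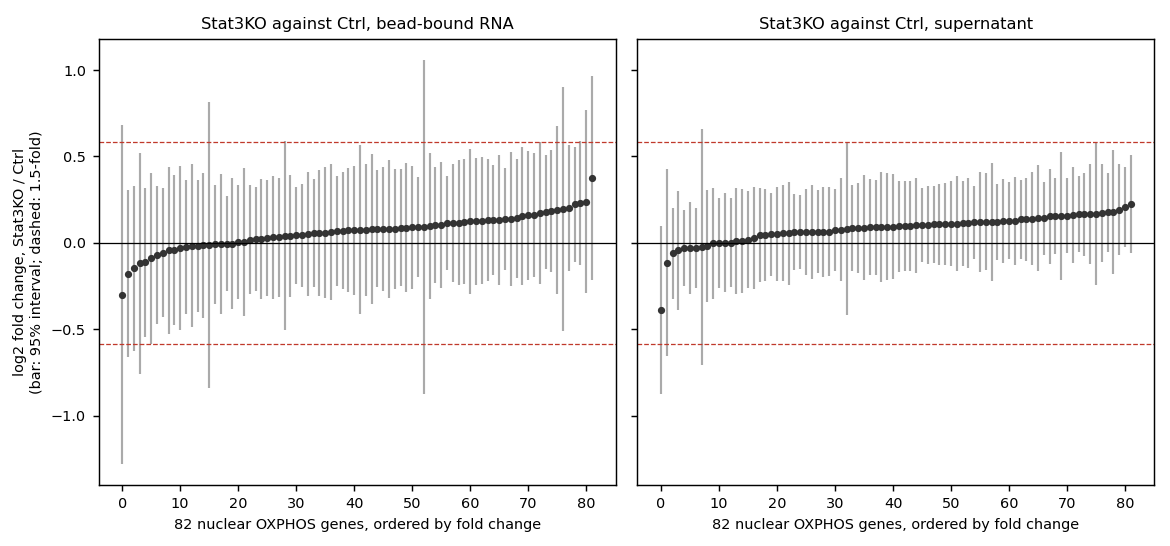
Log2 fold change of Stat3KO against Ctrl for the 82 genes in bead-bound RNA (left) and supernatant (right), ordered by size, with 95% intervals and dashed lines at 1.5-fold. Every interval covers 0, and the intervals are wider on the left, where 70 lie within the dashed lines, than on the right, where 79 do.

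In the supernatant, which holds RNA of all other cells of the block as well as of LepRb cells that was not pulled down, none of the 82 genes was called either (18547 genes tested, 0% called higher and 0.0108% lower). None had an unadjusted p under 0.05, DESeq2 called none, and the smallest adjusted p was 0.821. The median log2 fold change was 0.09 with 70 values above 0, against a median of -0.0029 over all genes, and without replicate 1 of Stat3KO it was -0.0037 with 40 above 0, while without replicate 1 of Ctrl it was 0.14 with 78 above 0. The 95% interval lay within 1.5-fold in 79 genes and within 2-fold in all 82.

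Stat3KO libraries lay above all Ctrl libraries for 8 genes (among them Atp5c1, Atp5o, Ndufa10, Ndufs3, Ndufv1, Uqcrc1 and Uqcrfs1) and below for 1 (Ndufa4l2), against 6.6% and 6.11% of all genes. Uqcrc1 had 275, 305 and 326 CPM in replicates 1, 2 and 3 of Stat3KO, against 261, 269 and 251 CPM in Ctrl. These do not overlap, but the gap is small beside the spread (log2 fold change 0.21, SE 0.105, adjusted p = 0.821). Ndufv1 had 178, 193 and 207 CPM in Stat3KO, against 177, 171 and 161 CPM in Ctrl (0.18, SE 0.104), and Ndufb8, an accessory subunit of complex I, 121, 101 and 112 against 112, 87.8 and 85.1 CPM (0.22, SE 0.129). With replicates 2 and 3 alone these 3 genes were called higher, at 0.28, 0.27 and 0.30 (adjusted p = 0.039, 0.0445 and 0.0429). Ndufa4l2 had 2.06, 1.49 and 1.78 CPM in Stat3KO, against 2.21, 2.53 and 2.18 CPM in Ctrl (-0.39, SE 0.222, adjusted p = 0.85).

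Whether the ratio of bead-bound to supernatant RNA differed by genotype was tested as an interaction over all 12 libraries. None of the 82 genes was called in either direction (0.193% of all genes higher and 0.0105% lower in Stat3KO), none had an unadjusted p under 0.05, and DESeq2 called none. The median was -0.02, the same as over all genes, with 37 values above 0. The 95% interval lay within 1.5-fold in 58 genes and within 2-fold in 78. The median ran from -0.16 without replicate 1 of Stat3KO bead-bound RNA to 0.10 without replicate 2 of the same group. Without replicate 1 of Ctrl it was 0.03 (bead-bound) or -0.07 (supernatant), and without replicate 1 of Stat3KO supernatant 0.05. The values with the smallest unadjusted p in each direction were 0.37 for Ndufa4l2 (SE 0.421) and -0.18 for Uqcrc1 (SE 0.178).

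The distance of replicate 1 from its group was itself patterned across these genes. Replicate 1 was the highest of the 3 libraries for 73 of the 82 genes in Stat3KO bead-bound RNA, 65 in Stat3KO supernatant, 59 in Ctrl supernatant and 48 in Ctrl bead-bound RNA. The median log2 difference from the mean of replicates 2 and 3 was 0.45, 0.24, 0.16 and 0.14 in the same order, against -0.02 to 0.01 over 13563 protein-coding genes. The genes named next, whose main transcripts are long, did not share 1 direction. Ndufs1, with an mRNA of 2661 bases, stood at 165, 194 and 219 CPM on the beads in Stat3KO replicates 1, 2 and 3, with 142, 204 and 196 CPM on the beads in Ctrl, lowest in replicate 1 of both. Sdhc (3171 bases) was instead highest in replicate 1 of both, with Stat3KO levels of 214, 154 and 169 CPM against 198, 174 and 166 CPM in Ctrl. Ndufb2 (4371 bases in the transcript taken, with a coding length of 315) had 78.0, 53.9 and 65.5 CPM in Stat3KO, highest in replicate 1. In Ctrl it had 64.4, 66.4 and 62.6 CPM. Across the 82 genes Spearman's rho of this difference with mRNA length was -0.48 and -0.53 in Stat3KO bead-bound RNA and supernatant and -0.11 and -0.56 in the same fractions of Ctrl. Over the protein-coding genes it was -0.36 to -0.54. No batch or lane is given for single libraries, and the part of library preparation was not tested.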

How the data were processed

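The files hold 1 table of raw whole-number counts per gene and library, deposited by the authors without normalization. Per the submitters' processing notes the aligner was STAR 2.5.3a and the build mm10. How genes were counted (tool, annotation, strand, reads with several matches) is not given in the sources used here. Per the labels' protocols, polyadenylated RNA (integrity number 8 or more) was read in 50 cycles, single end. All columns were mapped to samples, with 0 left over, and GENCODE M21 (GRCm38) matched 52489 of 52638 identifiers.

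The test was edgeR's (version 4.0.16, R 4.3.3), after filterByExpr (minimum count 10, minimum total 15) and then TMM scaling. It was a quasi-likelihood fit on all genes kept, with 2-sided tests and Benjamini-Hochberg adjustment over these genes. Calls were made at an adjusted p under 0.05. The CPM printed here use TMM factors from the counts before this filter, so their scaling differs from that of the fits. Bead-bound against supernatant RNA and the interaction used all 12 libraries, and each genotype comparison its 6. The SE is the size of the log2 fold change over the square root of F. Log ratios of single libraries add 0.5 to the CPM. Transcript windows were aligned with bwa 0.7.19-r1273. Scripts were tested on simulated data. Without molecular identifiers, depth bears on counting error alone, and p-values measure the spread between libraries of a group, which come from different pools. Where both fractions enter, the main fits leave out that each pool gave 2 libraries.

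Values of 1 gene of complex I are counted with the others but not reported here. Members and lists were chosen with earlier results of these data known. Genes were named by role: catalytic subunits, isoform groups, the 8 largest called changes, extremes of level per length, and the 3 smallest unadjusted p-values in each direction where nothing was called. A few others were named after their values were seen (Ndufa10, Ndufb2, Ndufs4, Ndufs6, Ndufa9, Ndufc1, Atp5j, Atp5e, Atp5s, Atp5o, Sdhaf4, Bcs1l, Atpaf1, Cox10).

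Bead-bound and supernatant libraries of 1 number came from 1 pool, per the series' design text, and their deviations from the group means correlated (r = 0.39 to 0.637 in the 6 pools), so fits with the pool as a block are given where they change a call. The other settings were DESeq2 1.42.0, its size factors, library totals, no filter, all 12 libraries, single genotypes, genes with shared windows left out, replicates 2 and 3 alone, and each library left out in turn.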

Additional observations from a re-analysis of the deposited data

How the results depend on the processing

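The count of genes higher on the beads stayed within 1.5 times of 67 in 20 of 21 alternatives, and the exception was the Stat3KO libraries alone, with 35, a fit on 6 of the 12 libraries. Leaving out 1 library gave 63 to 69. The count of genes lower on the beads was 1 and rose to 4 with library totals, to 4 with replicates 2 and 3 only, and to 3 with the pool block, and it fell to 0 when genes with shared windows were left out, which removes Atp5l. Leaving out 1 library gave 1 to 4, with 3 without replicate 1 of Stat3KO bead-bound RNA and 4 without replicate 1 of Ctrl bead-bound RNA. The added genes were Cox6a2, Ndufab1, Ndufa4l2 and, without replicate 1 of Stat3KO bead-bound RNA, Cox6b2. For the other changes the cause was not tested. Library totals moved the median of all genes from -0.03 to -0.16 and that of the 82 genes from 0.47 to 0.34, and 52 were then called higher.

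With the pool as a replicate block 71 genes were called higher and 3 lower: Atp5b, Cox6a1, Cyc1 and Ndufs1 joined the higher, and Cox6a2 and Ndufab1 the lower. Between genotypes the replicate number did not pair the pools (r = -0.0896 to 0.323), and as a replicate block it left 0 calls in both fractions. The count of genes higher in Stat3KO supernatant was 0 in all fits but that on replicates 2 and 3 only, with 3, and the count lower in Stat3KO bead-bound RNA was 0 in all fits but the same one, with 1. The cause was not tested. For the ratio between genotypes all 19 alternatives gave 0. The least precise values belonged to genes at low levels. Between fractions the SE was 0.258 for Cox6b2 (1.88 CPM) and 0.254 for Atp5l (2.49 CPM), against a median of 0.105 over the 82 genes. For Atp5g2, at the lowest level (1.31 CPM), it was 0.215.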
